A study of Mus musculus with 6 samples.

Results

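The genes described here are the 37 genes of the mouse mitochondrial genome, taken as every gene in the deposited table whose name starts with mt-. They are 13 protein genes, 2 ribosomal RNA (rRNA) genes and 22 transfer RNA (tRNA) genes, among 55401 genes in all. RNA came from bone marrow of 6 mice that had received leukaemia cells in a secondary transplant, the leukaemia being one of Hoxa9 and Meis1, both homeobox genes. The Lym group held lymphoid leukaemia stem cells of mice 62, 63 and 87, which had received lymphoid cells, and the Lin- group held lineage-negative, cKit-positive progenitor cells of mice 56, 57 and 91, which had received Lin- cells. Each mouse gave 1 library, so each SD is a spread between animals. Each SE is that of a limma fit, which draws a gene's error between animals toward the errors of all genes tested. All 6 mice carried the same pair of driver genes and no group without leukaemia is analysed here. The labels used here give no donor leukaemia and no age for a mouse. Per-library values below follow the order mice 62, 63, 87 for Lym and 56, 57, 91 for Lin-. Kit, which defines the Lin- sort, was not higher in the Lin- libraries, as the marker values at the end show.

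The mitochondrial genome is a small circle whose products all serve oxidative phosphorylation: its proteins are subunits of respiratory complexes I, III and IV and of the ATP synthase, and its rRNAs and tRNAs translate them inside the organelle. Both strands are transcribed as long precursors, most genes lying on the heavy strand, and the tRNAs that sit between the other genes mark where the precursor is cut. Copies of mitochondrial sequence have also been inserted into nuclear chromosomes, and a read that matches both places cannot be assigned from its letters alone.

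To see which genes this could touch, each gene was cut into all its words of 38 bases, the length of a read, and each word was looked for on both strands of all nuclear transcripts of the GENCODE M21 annotation (GRCm38). All 647 words of mt-Co2, a core subunit of cytochrome c oxidase, were found in nuclear transcripts, as were 99.9% of the words of mt-Co3 (another core subunit), 99.5% of mt-Atp6 (the proton channel subunit of ATP synthase), 98.8% of mt-Nd4l and 98.1% of mt-Nd3 (membrane subunits of complex I). The shares were 62.6% for mt-Nd4 and 58.4% for mt-Co1. They were 13% for mt-Nd5, 10.5% for mt-Nd2, 3.59% for mt-Atp8, 1.99% for mt-Cytb, 1.81% for mt-Rnr2, 1.04% for mt-Nd6 and 0 for mt-Nd1 and mt-Rnr1. None of the 22 tRNA genes had such a word. Nuclear copies outside annotated transcripts were not searched, so the low share of mt-Atp8 covers annotated transcripts alone.

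The closest copies of mt-Co2, mt-Atp6, mt-Co3, mt-Nd3, mt-Nd4l and mt-Nd4 are 6 of 7 pseudogenes that lie side by side on the minus strand of chromosome 1, from 24611535 (Gm28439) to 24616197 (Gm29216). The closest copy of mt-Co1 is Gm13340 on chromosome 2, 97.6% identical over 1545 bases. Printed here are 3 pairs of stretches of 60 bases, chosen because they span the range from a perfect copy to a diverged one. Capitals mark bases that differ between the members of a pair, and each sequence reads 5′ to 3′ along its gene in GRCm38. The mt-Co2 stretch is chrM:7013-7072 on the plus strand and its copy in Gm28661 is chr1:24615506-24615565 on the minus strand.
mt-Co2: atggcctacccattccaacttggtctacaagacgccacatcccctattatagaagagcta
Gm28661: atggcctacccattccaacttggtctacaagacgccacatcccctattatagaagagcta
The mt-Nd3 stretch is chrM:9459-9518 on the plus strand and its copy in Gm28438 is chr1:24613060-24613119 on the minus strand.
mt-Nd3: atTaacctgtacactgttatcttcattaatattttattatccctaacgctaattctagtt
Gm28438: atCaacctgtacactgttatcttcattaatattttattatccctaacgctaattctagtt
The mt-Cytb stretch is chrM:14146-14205 on the plus strand and its copy in Gm11410 is chr4:80003990-80004049 on the plus strand.
mt-Cytb: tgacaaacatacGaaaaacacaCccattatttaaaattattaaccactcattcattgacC
Gm11410: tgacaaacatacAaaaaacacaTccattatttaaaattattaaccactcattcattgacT
The whole of mt-Nd3 differed from Gm28438 at 1 of 345 aligned bases, the substitution T3C counted from the first base of the gene, whereas mt-Co2 matched Gm28661 at all 681 aligned bases and mt-Cytb, the core subunit of complex III, differed from Gm11410 at 81.

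Of the 5 protein genes that share over 90% of their words with nuclear transcripts, 4 had almost no reads in either group and mt-Nd3 had few. Values below are the deposited normalized counts, the reads of a gene after division by the size factor of its library, and reads are the whole numbers recovered from them. mt-Co2 had 2 reads in Lym mouse 62, 1 in Lin- mouse 56 and 0 in the other libraries. mt-Co3 had 1 read in Lin- mouse 57 and 0 elsewhere, and mt-Atp6 and mt-Nd4l had 0 in all 6 libraries. mt-Nd3 had a normalized count of 126 to 272, or 129 to 271 reads. All cells that respire use these genes, so mt-Co2, mt-Co3, mt-Atp6 and mt-Nd4l are described only as listed at 0 or near it, with no fold or test. A count of 0 allows up to 3 reads, a normalized count of 2.64 to 3.36 depending on the library, and this limit covers counting error only.

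**Figure D1:**
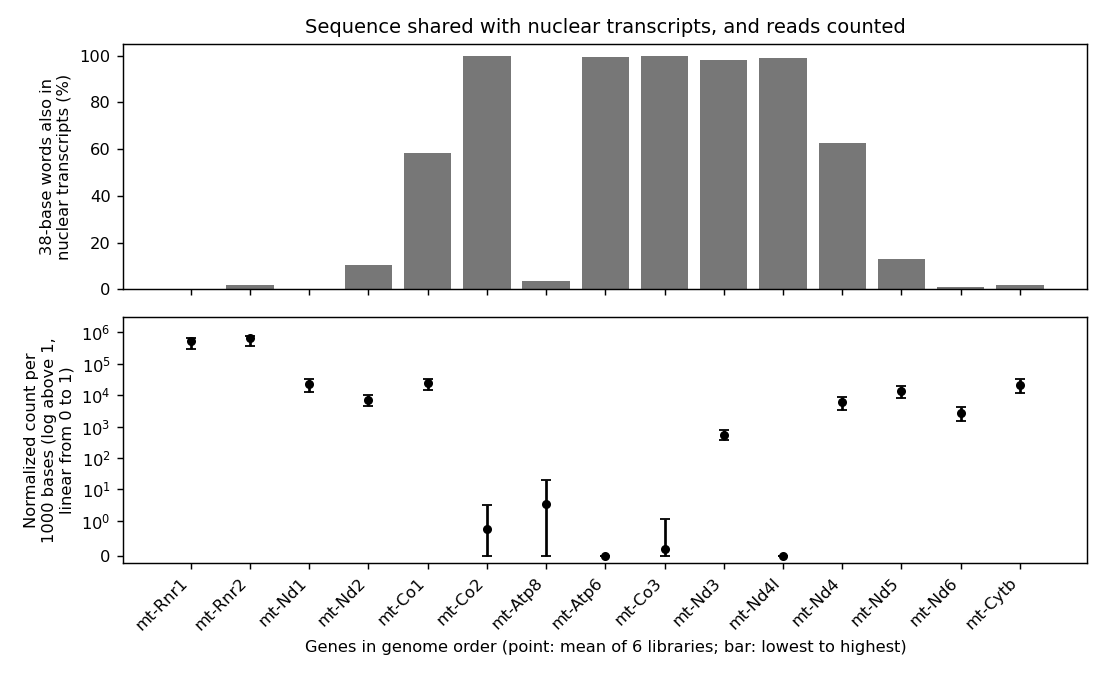
The upper bars give, for the 15 rRNA and protein genes in genome order, the percent of 38-base words also found in nuclear transcripts. The lower points give the mean normalized count per 1000 bases over 6 libraries with the lowest and highest library. The genes whose bars exceed 90% are at or near 0 below, except mt-Nd3 at a mean of 520 per 1000 bases, and mt-Atp8 is near 0 with a bar of 3.59%.

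The low counts lay together in position. Between mt-Co1 and mt-Nd4 lie 11 genes, and the 10 besides mt-Nd3 had 8 reads together over all 6 libraries. Of these 11 genes 7 were at 0 everywhere. mt-Atp8, a small subunit of ATP synthase, had 4 reads in Lin- mouse 91 and 0 in the other libraries. Its 6 words found in a nuclear transcript lie in Gm10925. The 7 pseudogenes on chromosome 1 had few reads as well. Their sums were 18, 16 and 15 reads in Lym against 20, 26 and 33 in Lin-. No single one exceeded 13 reads in a library. How reads with more than 1 best position were handled is not given in the sources used here, and its part in these low counts was not tested.

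The filter for testing was a normalized count of at least 10 in at least 3 libraries, and 13 of the 37 genes passed it: both rRNA genes, 8 protein genes and 3 tRNA genes. Of the 24 others, 12 were at 0 in every library (2 protein and 10 tRNA genes) and 12 had some reads (3 protein and 9 tRNA genes).

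The 2 rRNAs carried nearly all mitochondrial reads. mt-Rnr2, the 16S rRNA of the large mitochondrial ribosomal subunit (chrM:1094-2675), had normalized counts of 1063410, 1139236 and 880562 in Lym against 576223, 1196035 and 1247652 in Lin-. mt-Rnr1, the 12S rRNA of the small subunit (chrM:70-1024), had 597931, 546172 and 417533 against 280485, 623875 and 591712. In both genes Lin- mouse 56 was lowest and Lym mouse 87 next, so the 2 groups overlapped. Reads of mt-Rnr2 per read of mt-Rnr1 lay between 1.78 and 2.11 in all libraries. The library kit was made for total RNA, and how much rRNA was removed during preparation is not given in the sources used here, so these are levels of what was left. The log2 differences, Lym minus Lin- on log2(normalized count + 2), were 0.10 ± 0.33 for mt-Rnr2 (SE, limma adjusted p = 0.924) and 0.13 ± 0.33 for mt-Rnr1 (limma adjusted p = 0.899).

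**Figure D2:**
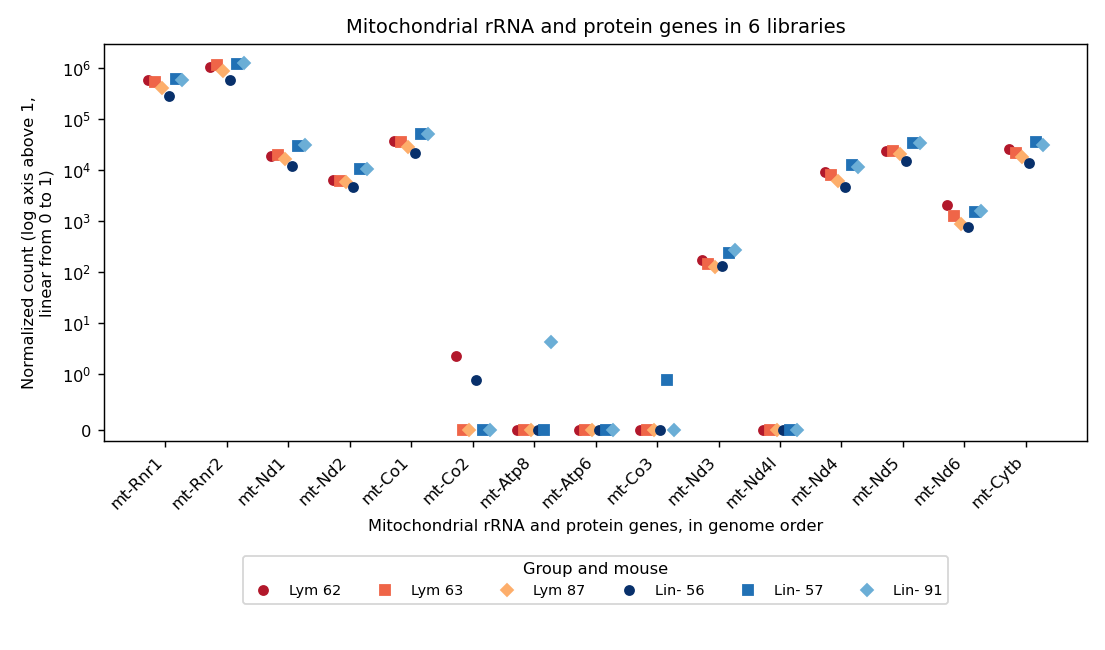
Each symbol is the normalized count of 1 library for the 15 rRNA and protein genes in genome order, with Lym libraries in reds and Lin- libraries in blues. In 9 of the 10 genes with substantial counts Lin- mouse 56 is lowest, and Lin- mice 57 and 91 lie at or near the top.

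Among the complex I genes, mt-Nd1 (chrM:2751-3707) had normalized counts of 18721, 19561 and 16516 in Lym against 11993, 29890 and 30951 in Lin-. mt-Nd2 (chrM:3914-4951) had 6495, 6026 and 5719 against 4605, 10522 and 10534. mt-Nd5 (chrM:11742-13565) had 24038, 23674 and 20750 against 14840, 34659 and 33846. In each of these 3 genes all Lym libraries lay between Lin- mouse 56 below and Lin- mice 57 and 91 above. mt-Nd4 (chrM:10167-11544) showed the same order, at 9200, 7926 and 6210 against 4631, 12377 and 11255. mt-Nd3 (chrM:9459-9806) was at 172, 144 and 126 against 132, 238 and 272, its lowest value being that of Lym mouse 87. Only 6 of its 311 words lay outside nuclear transcripts. The log2 differences of mt-Nd1, mt-Nd5 and mt-Nd4 were -0.29 ± 0.33, -0.19 ± 0.30 and -0.17 ± 0.34 (SE, limma adjusted p = 0.764, 0.84 and 0.874).

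mt-Nd6, the complex I gene that lies on the light strand (chrM:13552-14070), followed another order. Its normalized counts were 2101, 1262 and 889 in Lym against 753, 1504 and 1583 in Lin-, so that Lym mouse 62 was the highest library, with a log2 difference of 0.13 ± 0.36 (SE, limma adjusted p = 0.911). Per 1000 reads of heavy-strand protein genes it had 17.3, 10.99 and 9.33 reads in Lym against 10.5, 8.66 and 9.41 in Lin-. Lym mouse 87 lay within the Lin- range, so the groups overlapped, and Lym mouse 62 lay far above it. Lym mouse 62 was also the library made from 1 ng of RNA, the others having 2 ng, and its part in this value was not tested. mt-Nd6 overlaps the end of mt-Nd5 on the opposite strand, and whether counting used the strand is not stated.

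mt-Co1, the catalytic subunit of cytochrome c oxidase (chrM:5328-6872), had normalized counts of 36512, 35578 and 27778 in Lym against 21941, 49941 and 50541 in Lin-. mt-Cytb (chrM:14145-15288) had 26162, 21967 and 18147 against 13626, 36136 and 30795. Both again had every Lym library between the lowest and the 2 higher Lin- libraries. The log2 differences were -0.21 ± 0.31 for mt-Co1 and -0.18 ± 0.33 for mt-Cytb (SE, limma adjusted p = 0.827 and 0.864). Over the 10 rRNA and protein genes that passed the filter, the highest library exceeded the lowest by 2.17-fold to 2.79-fold. Lin- mouse 56 was lowest in 9 of the 10, with Lym mouse 87 second lowest in those 9, and Lin- mouse 91 was highest in 5, Lin- mouse 57 in 4 and Lym mouse 62 in 1.

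Per 1000 bases the protein genes formed an order that was nearly the same in each library. The mean normalized count per 1000 bases was 23980 for mt-Co1, 22228 for mt-Nd1, 21392 for mt-Cytb, 13871 for mt-Nd5, 7049 for mt-Nd2, 6241 for mt-Nd4 and 520 for mt-Nd3, with mt-Nd6 between 1450 and 4047 in the 6 libraries, against 642975 for mt-Rnr2 and 533631 for mt-Rnr1. From mt-Rnr2 and mt-Rnr1 down to mt-Nd6 and then mt-Nd3, each gene lay above the next in 6 of 6 libraries, except mt-Nd1 over mt-Cytb in 4 and mt-Nd2 over mt-Nd4 in 5. The order depended on how length was counted. Per 1000 words not found in nuclear transcripts, the means were 58994 for mt-Co1, 30134 for mt-Nd3, 23122 for mt-Nd1, 22555 for mt-Cytb, 17131 for mt-Nd4, 16271 for mt-Nd5, 8166 for mt-Nd2 and 2827 for mt-Nd6. Read pairs span more than 1 word, so this second scale is not a level either, and mt-Nd3 has only 6 such words.

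No mitochondrial gene differed between Lym and Lin- by the test over the whole table. None of the 13 genes tested passed an adjusted p of 0.05 with limma (adjusted p 0.595 to 0.984), and none had an unadjusted p under 0.05, the lowest being 0.16 for mt-Nd3. Over all 14273 genes tested, limma called 0, while 1459, 10.2%, had an unadjusted p under 0.05. The edgeR test called 0 of 14335 genes, with 1442, 10.1%, at an unadjusted p under 0.05. DESeq2 called 226 of 16268 genes, 1.39%, and no mitochondrial gene. The authors' deposited table gives 101 of 31604 genes, 0.32%, past an adjusted p of 0.05, with no mitochondrial gene among them. In the authors' deposited table mt-Nd2 had a log2 difference of -0.41 with an unadjusted p of 0.0536 and an adjusted p of 0.964. Of the 13 log2 differences 5 were above 0, as were 48.7% of all genes tested, and 8 were below, with a median of -0.18 against -0.01 over all genes. The widest negative values among the protein genes were -0.48 ± 0.31 for mt-Nd3 and -0.40 ± 0.29 for mt-Nd2 (SE, limma adjusted p = 0.595 and 0.638). The groups overlapped in all 13. Over all genes tested they did not overlap in 15.6%, with Lym above in 8.49% and below in 7.08%.

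These values depended on Lin- mouse 56. Without that library 8 of the 13 genes had all Lym values below both remaining Lin- values, where 10.8% of all genes did. The unadjusted limma p was under 0.05 in 7 of the 13, all lower in Lym, where 5% of all genes passed that p and 1.72% did so with Lym lower. mt-Nd1 then had a log2 difference of -0.74 and mt-Nd2 one of -0.79 (limma unadjusted p = 0.000729 and 0.00031), but their adjusted p-values were 0.841 and 0.574. No label sets mouse 56 apart from mice 57 and 91. It had 22422344 reads assigned to genes, the second highest number of the 6 libraries, which ranged from 18537700 to 22634286.

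Summed by class, mitochondrial genes made up 8.495%, 8.68% and 6.86% of the reads assigned to genes in Lym against 4.70%, 10.0% and 9.75% in Lin-. The rRNAs alone had 7.91%, 8.12% and 6.39% against 4.33%, 9.14% and 8.92%. The protein genes had 0.587%, 0.560% and 0.473% against 0.367%, 0.880% and 0.824%. In all 3 sums the Lin- libraries lay on both sides of the Lym libraries, and sums carry no test. In bulk RNA, fewer cells of a type and less RNA per cell cannot be told apart. Malat1, an abundant nuclear RNA, had normalized counts of 107065, 90210 and 67379 in Lym against 51999, 89380 and 67412 in Lin-. It was thus also lowest in mouse 56, but highest in Lym mouse 62. Its part in the mitochondrial values was not tested.

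Within the mitochondrial genome the balance of rRNA to mRNA separated the groups, while those of tRNA to mRNA and of light to heavy strand, given below, did not. Reads of the 2 rRNA genes per read of the 13 protein genes came to 13.5, 14.5 and 13.5 in Lym against 11.8, 10.4 and 10.8 in Lin-. All 3 Lym libraries lay above all 3 Lin- libraries, 13.8 ± 0.595 against 11.01 ± 0.731 (SD, n = 3 each). The ratio needs no scaling to nuclear genes, and Lin- mouse 56, which had the fewest mitochondrial reads, was the Lin- library closest to Lym. Counting only the 5 protein genes that passed the filter and had under 20% of their words in nuclear transcripts gave 21.4, 23.2 and 20.9 against 18.7, 16.2 and 17.1, also with no overlap. This count is not independent of the first, as it uses the same rRNA reads and part of the same mRNA reads. It was chosen after the data were seen. Reads of mt-Rnr2 per read of mt-Nd1, its neighbour beyond 1 tRNA, were 56.8, 58.2 and 53.3 against 48.0, 40.0 and 40.3. The separation did not hold for every protein gene. For mt-Rnr2 reads per read of mt-Cytb, mt-Nd4 or mt-Nd6 the groups overlapped, Lym mouse 62 lying within or below the Lin- range. With the 2 rRNA genes summed, the groups overlapped per read of mt-Nd4 or mt-Nd6 but not per read of mt-Cytb. Per read of mt-Nd2, mt-Nd3, mt-Co1 or mt-Nd5 the groups did not overlap by either count. How much rRNA the kit removed from each library is not given in the sources used here, and its part in these ratios was not tested.

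A ratio of sums over chosen genes is given no p here. Gene by gene the difference did not pass with values scaled to mitochondrial mRNA reads. There limma gave log2 differences of 0.35 for mt-Rnr1 and 0.32 for mt-Rnr2, with adjusted p-values of 1.0. That fit draws each gene's error toward the errors of all genes, most of them nuclear. The scale adds to those the spread of mitochondrial mRNA, whose share of gene reads ranged 2.4-fold. So these p-values cannot decide whether the rRNAs differed per mRNA read. On that scale both rRNAs lay above in every Lym library, as did 4.29% of all genes, and mt-Nd2 lay below, as did 0.624%, or 4.92% in either direction. There limma called 139 genes, 0.967%, none of them mitochondrial. That scale moved the median of all genes to 0.20.

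**Figure D3:**
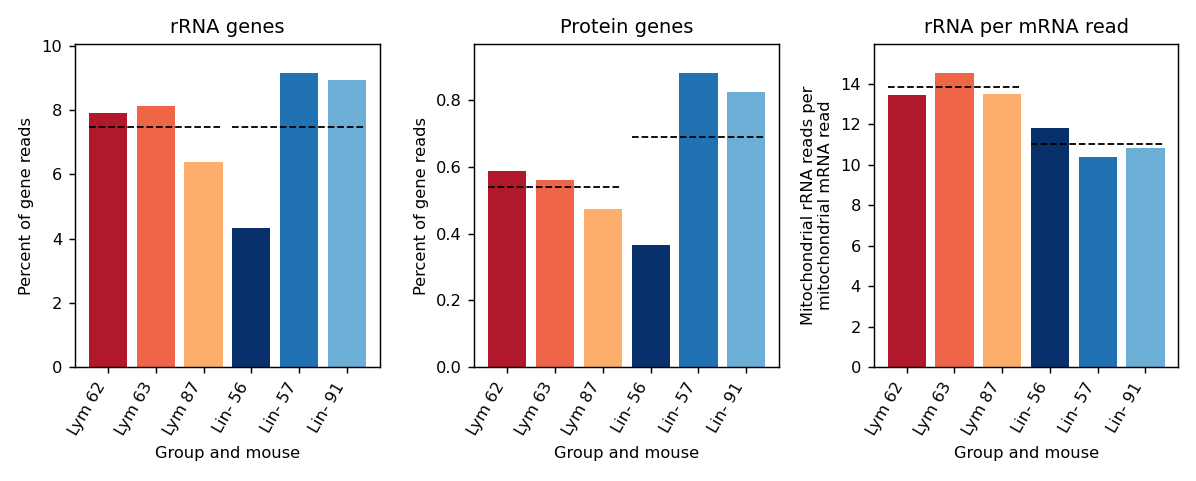
Bars give, for each library, the percent of gene reads on mitochondrial rRNA genes (left) and protein genes (middle) and the number of rRNA reads per mRNA read (right), with dashed lines at the group means. The groups overlap in the first 2 panels, and in the third the lowest Lym library (13.5) lies above the highest Lin- library (11.8).

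The make-up of the mRNA reads varied little between animals. mt-Co1 held 28.5% to 30.6% of the reads on protein genes in every library, mt-Nd5 19.5% to 21.6%, mt-Cytb 18.1% to 21.2% and mt-Nd1 15.2% to 18.2%. mt-Nd4 held 6.38% to 7.46%. Only mt-Nd2, among the 8 protein genes that passed the filter, had shares that did not overlap, at 5.26%, 5.19% and 5.95% in Lym against 6.35%, 6.00% and 6.20% in Lin-. On that scale the limma adjusted p of mt-Nd2 was 1.0, with the limit given above for the rRNAs. mt-Nd6 was the gene with the widest relative spread of share among these 8, from 0.858% in Lin- mouse 57 to 1.70% in Lym mouse 62.

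**Figure D4:**
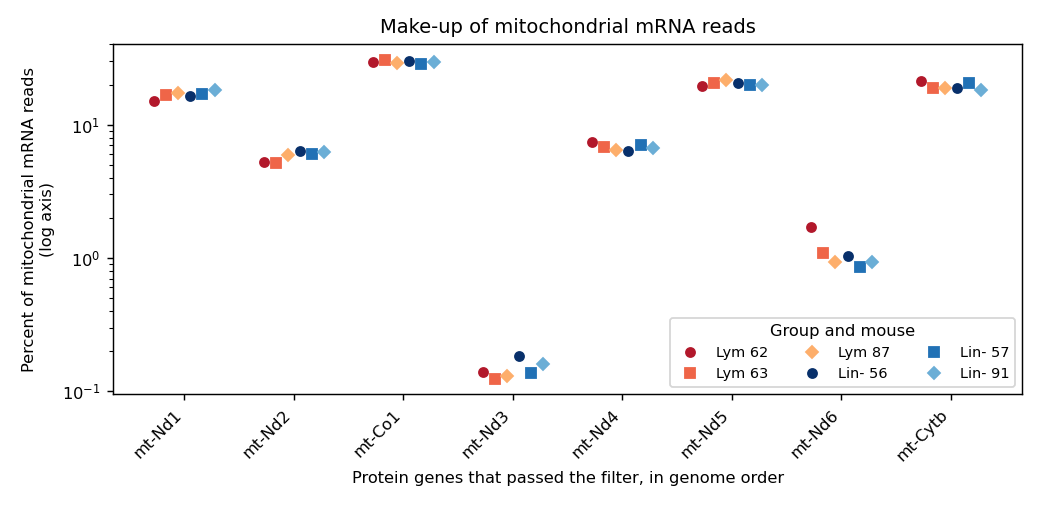
Each symbol is the percent of a library's mitochondrial mRNA reads (log axis) on 1 of the 8 protein genes that passed the filter, with Lym in reds and Lin- in blues. Shares stay within a narrow band for mt-Co1 (28.5% to 30.6%), and mt-Nd6 of Lym mouse 62 stands above the other libraries at 1.70%.

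Transfer RNA genes had very few reads. The 22 genes together had 52, 91 and 102 reads in Lym against 52, 81 and 139 in Lin-. Of the 517 reads 346, 66.9%, fell on mt-Tl1, mt-Tp and mt-Tq, the 3 that passed the filter. mt-Tl1 carries leucine and lies on the heavy strand between mt-Rnr2 and mt-Nd1 (chrM:2676-2750, plus strand), whereas mt-Tp for proline (chrM:15356-15422) and mt-Tq for glutamine (chrM:3772-3842) lie on the minus strand. Their sequences are shown whole because each is short enough for a 38-base read to reach its neighbour.
mt-Tl1: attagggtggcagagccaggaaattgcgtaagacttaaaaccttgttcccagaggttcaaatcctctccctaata
mt-Tp: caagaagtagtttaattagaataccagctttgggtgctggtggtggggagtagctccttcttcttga
mt-Tq: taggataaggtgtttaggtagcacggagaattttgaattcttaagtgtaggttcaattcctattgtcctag
mt-Tl1 had normalized counts of 15.7, 42.5 and 27.6 in Lym against 9.70, 30.8 and 52.6 in Lin-. mt-Tp had 13.5, 23.5 and 25.7 against 10.6, 10.6 and 23.7, and mt-Tq had 15.7, 2.24 and 7.62 against 3.53, 10.6 and 21.7. The groups overlapped in each, and the log2 differences were 0.05 ± 0.65, 0.48 ± 0.54 and -0.40 ± 0.79 (SE, limma adjusted p = 0.984, 0.766 and 0.874).

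The other 19 tRNA genes had at most 18 reads in a library. Among them mt-Tw for tryptophan had 51 reads over all libraries, mt-Tt for threonine 48, mt-Tv for valine 26 and mt-Tm for methionine 25, and 5 more had 2 to 7. mt-Tv lies directly between the 2 abundant rRNA genes and had 1 to 7 reads in a library. The 10 tRNA genes at 0 in every library were mt-Tc, mt-Ts1, mt-Td, mt-Tk, mt-Tg, mt-Tr, mt-Th, mt-Ts2, mt-Tl2 and mt-Te. Of these, 5 lie in the stretch between mt-Co1 and mt-Nd4, where the protein genes besides mt-Nd3 were also near 0, and 5 lie outside it. How reads across a gene border were counted is not given in the sources used here. Per 1000 mitochondrial mRNA reads, all tRNA genes together had 0.473, 0.877 and 1.01 reads in Lym against 0.633, 0.407 and 0.844 in Lin-, with overlap. The 9 genes of the light strand had 0.662 to 1.20 reads per 1000 reads on the 28 heavy-strand genes, and the groups overlapped.

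The nuclear genes that serve the same organelle were lower in Lym by most of their values, though none passed the test. In 12 lists of such genes 255 distinct genes were tested, and limma, edgeR and DESeq2 called 0 of them. The unadjusted limma p was under 0.05 in 36 of the 255, 14.1%, of which 35 were lower in Lym, where 4.27% of all genes were lower in Lym at that p. The median log2 difference was -0.25, against -0.01 over all genes. All 37 nuclear subunits of complex I were below 0, with a median of -0.34, as were all 4 of complex II (-0.31), all 9 of complex III (-0.42), 11 of 12 of complex IV (-0.35) and all 18 of complex V (-0.42), where 51.3% of all genes tested were below 0. Of the proteins of the mitochondrial ribosome 74 of 77 were below 0, with a median of -0.27. The size of these medians depended on single mice. Without Lym mouse 87 they were -0.55 for complex I, -0.57 for complex III, -0.65 for complex IV, -0.64 for complex V and -0.42 for the ribosome. Without Lym mouse 62 they were -0.27, -0.26, -0.21 and -0.30 for complexes I, III, IV and V, and without Lym mouse 63 the ribosome's was -0.19. Beside them, the 3 tested nuclear-retained RNAs lay above 0, with a median of 0.19, and their part in these values was not tested. Of these Kcnq1ot1 did not overlap, at 6978, 6897 and 6655 in the Lym libraries and 5730, 6395 and 5871 in the Lin- libraries (limma adjusted p = 0.533).

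Cyc1, the cytochrome c1 subunit of complex III, was at normalized counts of 670, 617 and 1038 in Lym against 1319, 1091 and 1248 in Lin-, with a log2 difference of -0.69 ± 0.21 (SE, limma adjusted p = 0.423). Sdhd, a membrane anchor of complex II, was at 1130, 1085 and 1460 against 2048, 1508 and 1887 (-0.57 ± 0.17, limma adjusted p = 0.421). The complex I subunit gene Ndufc2 was at 605 ± 142 against 876 ± 160, and Atp5g1, for subunit c of ATP synthase, at 321 ± 79.3 against 463 ± 35.2 (SD, n = 3 each). These 4 were picked for large differences among genes whose groups did not overlap. Lym lay below without overlap in 8 of 37 complex I genes, 2 of 4 of complex II and 2 of 9 of complex III. It did so in 0 of 12 of complex IV and 4 of 18 of complex V, where 7.08% of all genes tested did. In each of the 4 named genes Lym mouse 87 was the Lym library closest to Lin-. Without that library limma called 56 of the list genes, 55 lower in Lym and 1 higher, where it called 9.67% of all genes and 4.18% of all genes as lower.

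Nuclear and mitochondrial subunits were set side by side in each animal. Reads on nuclear subunits of complexes I to V came to 3944, 4174 and 6063 RPM (reads per 1000000 gene reads) in Lym against 6799, 5559 and 5909 in Lin-. Lin- mouse 56 was highest there and lowest in mitochondrial mRNA. Mitochondrial mRNA reads per nuclear subunit read were 1.49, 1.34 and 0.780 in Lym and 0.539, 1.58 and 1.39 in Lin-, a 2.94-fold range in which the 2 groups overlapped.

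**Figure D5:**
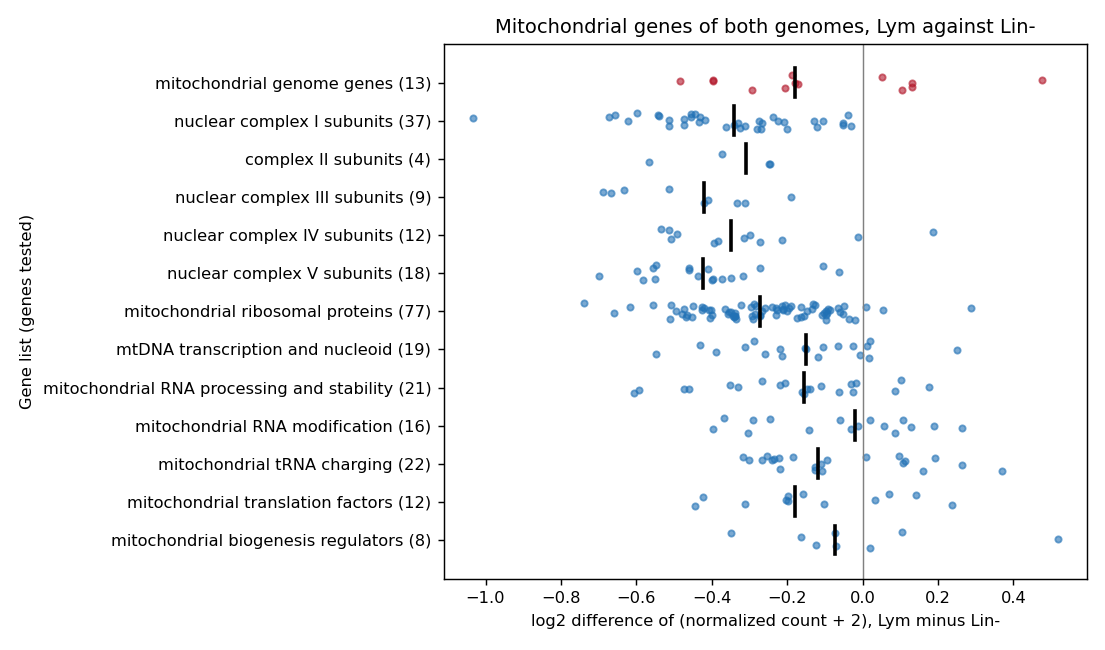
Each point is the log2 difference of 1 tested gene, Lym minus Lin-, by list, with a black bar at the list's median. The 13 mitochondrial genome genes (red) lie on both sides of 0 with a median of -0.18, and all 37 nuclear complex I genes lie below 0.

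The factors that make and handle mitochondrial RNA did not pass the test either. The mitochondrial RNA polymerase gene Polrmt had a mean of 799 ± 91.0 in the Lym libraries and 791 ± 84.8 in the Lin- libraries (SD, n = 3 each), and Tfam, which packages and activates the mitochondrial genome, one of 824 ± 111 and 898 ± 154. The initiation factor gene Tfb2m was at 157, 205 and 175 in Lym against 206, 248 and 249 in Lin-, the groups not overlapping (log2 difference -0.39 ± 0.22, limma adjusted p = 0.551). Tefm, an elongation factor, was at 108 ± 9.86 against 131 ± 23.3. Lrpprc and Slirp, which together stabilise mitochondrial mRNA, were at 2914 ± 429 against 3223 ± 50.2 and at 203 ± 25.8 against 219 ± 19.2. Of 19 genes for transcription and the nucleoid 15 were below 0 (median -0.15), and 2 were lower in every Lym library, Tfb2m and Ssbp1, the single-stranded DNA binding protein, at 924 ± 28.1 against 1028 ± 92.3. That is 10.5% of the list, where 7.08% of all genes tested lay so.

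Of 21 genes for RNA processing and stability 18 were below 0 (median -0.16). Trnt1, which adds the CCA end to tRNAs, was at 888, 918 and 958 in Lym against 1412, 1378 and 1076 in Lin- (log2 difference -0.47 ± 0.15, limma adjusted p = 0.426). Fastkd2, needed for handling of the 16S rRNA, was at 290 ± 72.4 against 436 ± 52.1 (limma adjusted p = 0.452). Both were among 4 genes of that list in which all Lym values lay below all Lin- values, where 7.08% of all genes did so. The medians were -0.02 for 16 genes of RNA modification, -0.12 for 22 genes of tRNA charging and -0.18 for 12 translation factors. All Lym values lay below all Lin- values in 4 of the modification genes, Trmt5 and Mrm3 among them, and in 2 of the translation factors, Mrrf and Mtrf1, while they lay above in 1 of the latter list, Oxa1l, at 1391 ± 26.6 against 1262 ± 62.5. Lym values lay below in this way in 3 of the charging enzymes, such as Aars2 (408 ± 61.3 against 487 ± 27.4), and above in 1, Fars2 (401 ± 46.9 against 332 ± 10.7). Lym lay above without overlap in 8.49% of all genes tested. Among 8 regulators of mitochondrial biogenesis, with a median of -0.07, Myc was the 1 gene higher in every Lym library, at 7897 ± 2141 against 5406 ± 622 (limma adjusted p = 0.452). Leaving out a mouse moved 3 of these medians by over 1.5 times. That of RNA modification ran from -0.13 without Lin- mouse 56 to 0.05 without Lym mouse 87, that of the translation factors reached -0.08 without Lym mouse 62, and that of the regulators ran from -0.12 without Lin- mouse 56 to -0.04 without Lin- mouse 57.

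The cell markers set beside these values were as follows. Kit, which defines the Lin- sort, was at 18902, 12027 and 3158 in Lym against 4953, 6066 and 3420 in Lin-, so it did not mark out the Lin- group. All 11 lymphoid and B markers had reads in Lym and 8 in Lin-, summing to 8.25 to 56.6 and 3.00 to 21.1 RPM with overlap. Within that list Il7r, the interleukin-7 receptor, had normalized counts of 424, 82.8 and 14.3 in the Lym libraries and 2.65, 3.52 and 4.13 in the Lin- libraries (limma adjusted p = 0.42). Dntt, the polymerase that adds bases at receptor gene joints, had 216, 29.1 and 4.76 and was at 0 in all Lin- libraries, as was Rag1, of the enzyme that cuts these genes, at 104, 2.24 and 1.91 in Lym. Ebf1, a B-lineage transcription factor, had 59.4, 6.71 and 14.3 against 0, 1.76 and 0. All 4, named from the 11 after their values were seen, were higher in every Lym library, as were 8.49% of all genes tested. Of them Dntt, Rag1 and Ebf1 did not pass the filter for testing, and Rag1 was under the limit of 3 reads in Lym mice 63 and 87. Cd79b, of the B-cell receptor, held much of the list's sum, at 255, 28.0 and 244 against 414, 45.8 and 284, and Pax5 and Cd79a stayed under 5 normalized counts in every library. The erythroid marker list reached at most 0.267 RPM, with its 4 globin genes at 0 everywhere. Neutrophil markers (8 of 8 with reads in Lym, 7 in Lin-) summed to 11 to 52.0 RPM in Lym against 35.2 to 68.1 in Lin-, and macrophage markers (6 and 4 of 7, C1qa at 0) to 247 to 333 against 324 to 382. Platelet markers (3 and 2 of 5, Ppbp and Gp1bb at 0) summed to 2.30 to 26.3 against 0.901 to 2.36. Pf4 and Gp9 had normalized counts of at most 3.36 in any library, so that sum rested almost wholly on the remaining gene of the list. T and NK markers (5 and 4 of 7, Cd8a at 0) summed to 0.516 to 1.98 against 0 to 0.177. Progenitor markers, at 2518 to 4509 against 2120 to 2379, and the T and NK sum did not overlap between groups, as the rRNA to mRNA ratio did not, and their part in it was not tested.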

How the data were processed

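Total RNA libraries of 6 mice were sequenced with 38-base reads after 12 PCR cycles, with an input of 2 ng (Lym mouse 62: 1 ng), per the labels' protocols. The tools in the submitters' processing notes are featureCounts 1.6.4, STAR 2.6.1d, Trim Galore 0.6.4, bcl2fastq and DESeq2, with GRCm38. Settings for strand and for reads with several positions are not given in the sources used here. For each library the authors deposited normalized counts, a signal that is the number of reads after division by a size factor. Dividing values up to 10000 by the step of the library gave whole numbers (tolerance 0.01; 100% of values), so reads were recovered, 18537700 to 22634286 per library. Per the file headers the authors' table also holds a log2 fold change (signs turned here to Lym minus Lin-), a Wald score, a p-value with its adjusted form and gene lengths. Gene identifiers and coordinates matched GENCODE M21 for 54349 of 55401 genes.

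limma 3.58.1 (R 4.3.3, trend option) was fitted to log2(normalized count + 2) over genes with at least 10 in at least 3 libraries, with Benjamini-Hochberg adjustment. edgeR 4.0.16 (TMM) and DESeq2 1.42.0 on recovered reads were alternatives, and all were tested on simulated data. Words were matched exactly in Python 3.11.15 and copies aligned with Biopython 1.88. Sequences are those of GENCODE M21 transcripts. Named genes were all rRNA and protein genes, tRNA genes with a mean of at least 50 normalized counts or among the 3 largest and 3 smallest differences of those tested, 6 fixed nuclear factors, and up to 2 genes per list with the largest difference among those with groups that do not overlap. Further tRNA genes, Malat1, Oxa1l and single markers were named after their values were seen. Members and lists were chosen with earlier results of these data known. The value of 1 marker is not reported here.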

Additional observations from a re-analysis of the deposited data

How the results depend on the processing

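No mitochondrial gene was called under any of the 14 alternatives run (edgeR, DESeq2, pseudocounts of 0.5 and 10, no filter, 3 scalings and leaving out each mouse). Over all genes 0 calls became 226 with DESeq2, 1 with a pseudocount of 10 and 5 without the filter, and 0 to 1348 when a mouse was left out, the highest without Lym mouse 87 and 1 without Lin- mouse 91. Mitochondrial genes with groups that do not overlap numbered 0, where 15.6% of all genes tested did not overlap. They numbered 3 when scaled to mitochondrial mRNA reads (4.92% of all genes) and 0 to 8 without a mouse. The highest was without Lin- mouse 56, with Lym below in all 8, as in 10.8% of all genes. Called genes of the nuclear lists ranged from 0 to 56 without a mouse, the highest without Lym mouse 87, where 9.67% of all genes were called. The log2 ratio of rRNA to mRNA reads, 0.33, stayed between 0.289 and 0.382 in the 8 alternatives run, of which the count over 5 protein genes was chosen after seeing the data. As the groups did not overlap in this ratio, leaving out a mouse could not turn its direction. Ratios to single protein genes, some of which overlapped, were not among these alternatives. The log2 ratio of the mitochondrial share of reads, 0.047, ranged from -0.31 to 0.236, and so had no stable direction; the mRNA share, -0.257, ranged from -0.663 to -0.031. No paired analysis was possible because the mice of the 2 groups share no number. The cause of these changes was not tested. The tRNA genes rest on only 52 to 139 reads per library, and why these are so few was not tested.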
